A study of Mus musculus with 12 samples.

Results

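The aquaporins of the mouse heart were followed across 4 treatment groups. The deposited tables listed 12 genes of the family among 21705 genes, and the 5 described here, Aqp4, Aqp1, Aqp7, Aqp8 and Aqp11, were taken by their symbols. They were the 5 family genes that passed the filter on low counts, in which 13440 genes were tested. The members were chosen by their levels in these libraries and with the differences between these same groups known, so their values below are a description, and no p is given for them.

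The study sequenced heart RNA of female FVB mice in 12 libraries, 3 per group. Sunitinib was given at 40, sorafenib at 30 and erlotinib at 50 mg/kg/day over 14 days, while control mice had water. Sunitinib blocks several receptor tyrosine kinases (VEGF, PDGF and KIT receptors), sorafenib blocks RAF kinases besides receptors for VEGF and PDGF, and the target of erlotinib is EGFR. The doses differ between the drugs, no genotype other than the strain is named, and neither the age of the mice nor the chambers taken is stated in the labels. The series' title places the comparison in the setting of cardiotoxicity of kinase inhibitors. Nothing in the labels says whether the 3 libraries of a group came from separate mice, so the spread between libraries may be partly technical.

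Aquaporins are membrane channels that assemble as tetramers, each subunit with a pore of its own. Aqp1 and Aqp4 conduct water. Aqp7 is an aquaglyceroporin that also passes glycerol, Aqp8 also passes hydrogen peroxide and ammonia, and Aqp11 belongs to a divergent branch found in intracellular membranes, among them the endoplasmic reticulum. In the heart Aqp1 is known from capillary endothelium, and in the mouse Aqp4 is found in the cardiomyocyte membrane. In muscle and in astrocyte end-feet Aqp4 is held in place through the dystrophin complex.

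Aqp8 and Aqp7 were the members besides Aqp4 whose erlotinib libraries lay wholly apart from both other drug groups, in opposite directions, and the 250 bases before their start sites are shown so that these start regions can be read. The sequences, which lie before the transcribed part, are those of RefSeq on GRCm38.p6, which is a later build than the one the authors used. They lie on chromosome 7 for Aqp8 (chr7:123462044-123462293, plus strand) and on chromosome 4 for Aqp7 (chr4:41048137-41048386, minus strand, the first of 2 start sites). Capitals mark the only match, on either strand, to the motifs searched.
Aqp8: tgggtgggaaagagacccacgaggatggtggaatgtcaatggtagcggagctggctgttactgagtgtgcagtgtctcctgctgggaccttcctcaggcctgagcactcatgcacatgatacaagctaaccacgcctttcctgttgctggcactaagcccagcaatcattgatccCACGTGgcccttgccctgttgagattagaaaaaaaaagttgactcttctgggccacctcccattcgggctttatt
Aqp7: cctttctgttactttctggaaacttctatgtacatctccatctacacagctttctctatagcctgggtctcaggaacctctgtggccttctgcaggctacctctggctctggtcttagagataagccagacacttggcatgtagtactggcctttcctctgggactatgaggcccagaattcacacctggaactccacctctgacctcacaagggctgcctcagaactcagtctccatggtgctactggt
Of 32851 mouse promoter windows of this length, 12.4% held the TATA box motif TATAAA on either strand. The motif CCAAT was found in 33.8% of them. The GC box motif GGGCGG was found in 32.7% of windows. The E-box motif CACGTG was found in 6.02% of windows, and the AP-1 motif TGANTCA in 6.75%. None of these motifs contains another. The Aqp8 window held CACGTG at -75 from the start site. The windows of both Aqp7 start sites held none of these letters, which says nothing about the factors that may bind there.

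The libraries held 14.3 to 16.5 M expected counts (M, 1e+06). Levels compared between groups are counts per M (CPM) after TMM scaling, and differences are log2 fold changes ± SE of an edgeR model over all genes. The heart label was borne out by the ventricular cardiomyocyte list, whose 12 genes summed to 96010 to 111000 CPM over all libraries, led by Myh6 and Mb. Atrial content differed between libraries: Myl4, an atrial myosin light chain, ranged from 1.54 to 234.9 CPM. The atrial and conduction score (the mean over its 12 tested genes of log2 CPM minus the gene's mean) spanned -1.30 to 1.41 in sunitinib, -1.49 to 0.97 in sorafenib, -1.60 to 0.65 in erlotinib and 0.57 to 0.87 in control libraries. Lung epithelial markers summed to at most 0.704 CPM. RNA of whole tissue was measured, so fewer cells of a type and less RNA per cell cannot be told apart.

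Aqp4 was highest in the sunitinib group and lowest in the erlotinib group, and under sorafenib and erlotinib it differed from control more than any other member. The 3 sunitinib libraries had 11.48, 26.5 and 28.5 CPM of Aqp4. In the 3 sorafenib libraries Aqp4 was at 6.99, 4.98 and 4.69 CPM. The 3 erlotinib libraries had 2.18, 2.85 and 2.87 CPM, against 8.89, 18.9 and 14.5 CPM in the 3 control libraries. Every erlotinib library lay below every library of the other 3 groups, and every sorafenib library lay below every sunitinib and every control library. The sunitinib and control libraries overlapped, because the lowest sunitinib library lay within the control range.

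**Figure D1:**
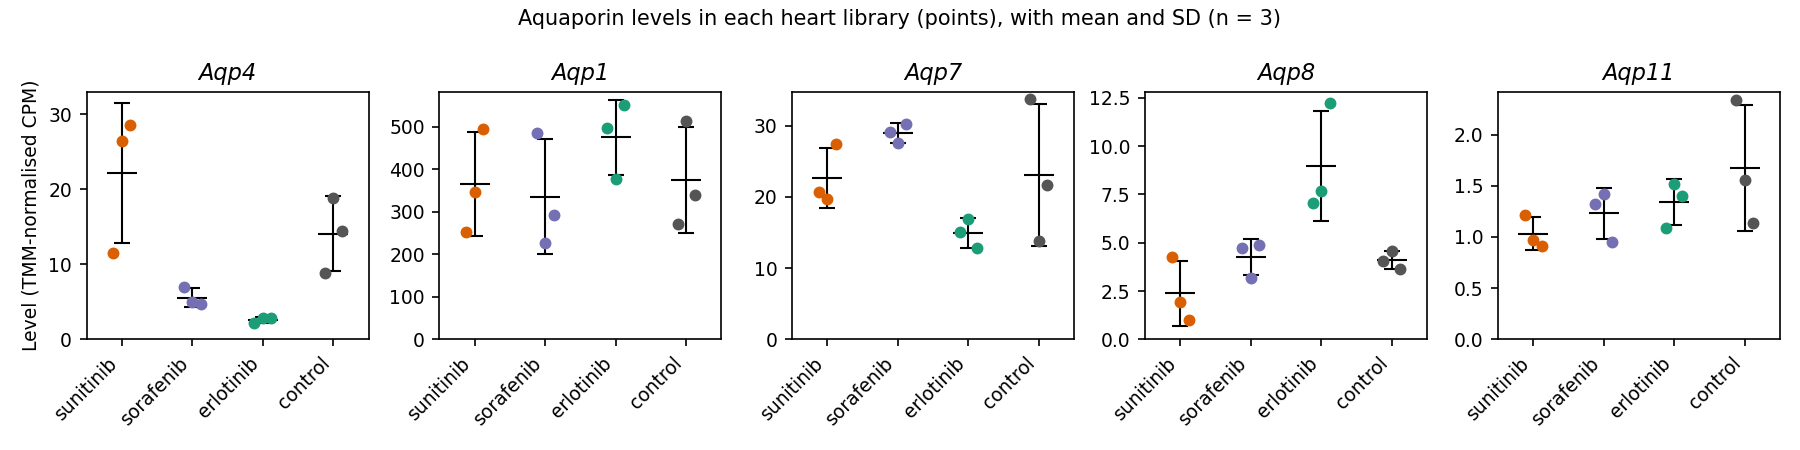
CPM of each aquaporin (vertical axis, from 0, scaled for each gene) in every library, by group from left to right sunitinib, sorafenib, erlotinib and control; points are libraries and bars are means ± SD over 3 libraries. Aqp4 stands at 2.18 to 2.87 CPM in the erlotinib libraries, below all others, while Aqp8 stands at 7.04 to 12.2 CPM there, above all others.

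Mean Aqp4 was 22.2 ± 9.31 CPM in sunitinib hearts, 5.55 ± 1.25 CPM in sorafenib hearts, 2.63 ± 0.397 CPM in erlotinib hearts and 14.07 ± 4.999 CPM in control hearts (SD, n = 3 each). Against control the log2 fold change of Aqp4 was -2.41 ± 0.40 for erlotinib, which is a level 5.33-fold lower. It was -1.34 ± 0.36 for sorafenib and 0.65 ± 0.34 for sunitinib. The erlotinib difference was the 10th lowest log2 fold change among the 13440 genes tested. Aqp4 was chosen with this contrast known, so nothing is read from the rank. The 3 drug comparisons share the control libraries, so they are not independent of each other.

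Set against sunitinib, both other drugs gave larger Aqp4 differences than against control. Erlotinib hearts had 8.38-fold less Aqp4 than sunitinib hearts (log2 fold change -3.07 ± 0.39), and no library overlapped. Erlotinib against sorafenib gave -1.08 ± 0.42 and sorafenib against sunitinib gave -1.99 ± 0.36, again with no overlap. The doses of the drugs differ, and dose was not varied within a drug.

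The depth behind Aqp4 was lowest where its level was lowest. The erlotinib libraries held 34, 45 and 43 counts of Aqp4, against 129 to 267 counts in the control libraries. In the erlotinib group the coefficient of variation between libraries was 15.1%, where counting error alone would give 15.7%. In the control group it was 35.5%, where counting error would give 6.86%, and in the sunitinib group 42% against 5.46%. Counts are not tallied by molecule, so these figures cover counting error only. The spread of Aqp4 in sunitinib and control hearts was thus well above counting error, and that in erlotinib hearts was not.

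Aqp4 was counted over 10 transcripts, whose mix set an effective length (the length over which a read can start) of 5007 to 5267 bases per library. The mean effective length was 5100 bases in erlotinib and 5047 bases in control hearts, so the level difference was not accompanied by a comparable difference in transcript length. In the RefSeq annotation a long noncoding gene, A830021F12Rik, overlaps Aqp4. The libraries were stranded, but whether the authors' counting used strand is not given in the sources used here. If it did not, reads from the shared stretch of the pair could not be told apart. Kctd1, the gene next to Aqp4 in that annotation, was the only neighbour of Aqp4 that was tested. Its log2 fold change in erlotinib against control was -0.52 ± 0.20, which did not pass (edgeR, adjusted p = 0.231). Under erlotinib Kctd1 had -0.57 ± 0.20 against sunitinib (adjusted p = 0.0766) and -0.76 ± 0.19 against sorafenib (adjusted p = 0.0551). In sorafenib against control, where Aqp4 was lower, Kctd1 had 0.24 ± 0.19 (adjusted p = 0.644). The neighbouring genes were looked up after the values of the members had been seen.

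Markers of glia and nerve, cells in which Aqp4 is also known, were lower in erlotinib hearts too. Their 11 genes summed to 27.3 to 31.9 CPM in sunitinib, 18.1 to 29.0 CPM in sorafenib, 15.9 to 21.3 CPM in erlotinib and 25.1 to 29.1 CPM in control libraries. All 7 tested genes of the list had log2 fold changes below 0 in erlotinib against control, with a median of -0.77. By edgeR 0 of the 7 passed after adjustment, and 5 had an unadjusted p under 0.05. In sunitinib against control, where Aqp4 had 0.65 ± 0.34, 4 of the 7 lay above 0 and 3 below, with a median of 0.03. Gfap, the defining astrocyte marker, had 0 to 5 counts per library, and the leading gene of the list, Cdh19, ranged from 3.07 to 10.97 CPM. The part of these cells in the Aqp4 difference was not tested.

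Fast skeletal muscle also carries Aqp4. Its 13 marker genes, of which 4 were tested, summed to 48.4 to 232.2 CPM in sunitinib, 336.4 to 474.1 CPM in sorafenib, 255.9 to 521.9 CPM in erlotinib and 286.1 to 408.4 CPM in control libraries. The sum was nearly all Acta1, the skeletal alpha-actin that heart also expresses (mean 284.2 CPM), and Mybpc2 (39.2 CPM). The sunitinib libraries, with the highest mean Aqp4, lay below all others. The fast myosins were at or near 0: Myh2 had 0 counts in every library, Myh1 0 to 4 and Myh4 1 to 8. The part of skeletal muscle in the Aqp4 difference was not tested.

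**Figure D2:**
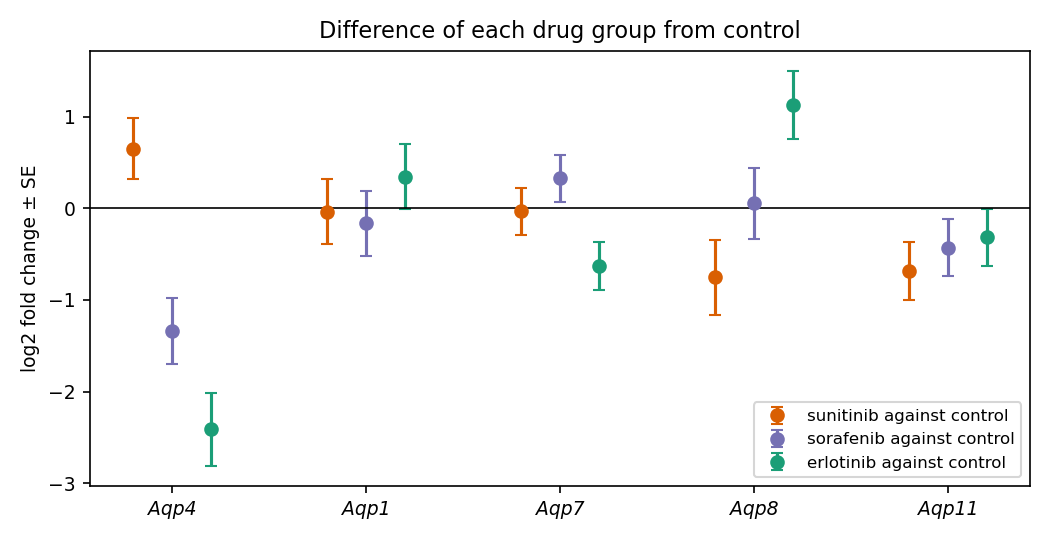
Log2 fold change ± SE (vertical axis) of each aquaporin in the sunitinib, sorafenib and erlotinib groups against control, from the model over all 12 libraries. Aqp4 reaches -2.41 and Aqp8 1.13 under erlotinib, and the values of Aqp1 lie between -0.16 and 0.34.

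Aqp1, the main water channel of capillary endothelium and of red cells, had the highest level of the family, and its libraries overlapped between all groups. It stood at 253.0, 346.7 and 495.6 CPM in the sunitinib libraries and at 486.9, 226.7 and 292.7 CPM in the sorafenib libraries. The erlotinib libraries had 498.2, 378.3 and 550.7 CPM, against 271.1, 514.0 and 339.9 CPM in the control libraries. The spread within each group was about as wide as any difference between groups. Log2 fold changes against control were -0.04 ± 0.35 for sunitinib, -0.16 ± 0.35 for sorafenib and 0.34 ± 0.35 for erlotinib.

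Aqp1 had 3826 to 8243 counts per library, so counting error was small. Its coefficient of variation was 33.5% in sunitinib, 40.3% in sorafenib, 18.6% in erlotinib and 33.4% in control libraries, where counting error would give 1.17% to 1.37%. The summed level of the 15 endothelial markers varied less, from 1784 to 1998 CPM in sunitinib, 2348 to 2478 CPM in sorafenib, 2107 to 2397 CPM in erlotinib and 1893 to 2005 CPM in control libraries. The sum was led by Fabp4 (mean 863.0 CPM), and the score that weights the 15 genes equally overlapped between sorafenib (0.04 to 0.13) and erlotinib libraries (-0.02 to 0.17). Red cell markers, led by Hba-a2, summed to 981.6 to 1700 CPM in sunitinib, 796.2 to 1038 CPM in sorafenib, 887.4 to 1640 CPM in erlotinib and 893.6 to 1254 CPM in control libraries, from 6 of 10 listed genes. The part of either cell type in the spread of Aqp1 was not tested.

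In the sunitinib, sorafenib and control groups the library with the most Aqp1 also had the most Aqp4 by CPM. In sunitinib hearts the order of the libraries was the same for both genes, and in control hearts it was also the same. In sorafenib hearts the library with 486.9 CPM of Aqp1 also had the highest Aqp4, at 6.99 CPM. The other sorafenib libraries had the reverse order. Sorafenib_1373 had 292.7 CPM of Aqp1 and 4.69 CPM of Aqp4, while Sorafenib_1372 had 226.7 and 4.98 CPM. In erlotinib hearts Erlotinib_1376 had the most Aqp1, and its Aqp4 was 2.873 CPM against 2.853 CPM in Erlotinib_1375. By counts of Aqp4 the order was reversed (43 against 45), so these libraries were not told apart. Between groups the genes did not go together, since erlotinib hearts had the highest mean Aqp1 and the lowest mean Aqp4. The Pearson r of their log2 CPM over the 12 libraries was -0.04. With group means removed it was 0.763, the highest of all member pairs, and no test was made.

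Aqp7, through which glycerol crosses the membrane of fat cells and cardiomyocytes, had its lowest mean in the erlotinib group and its highest in the sorafenib group. It had 20.7, 19.8 and 27.4 CPM in the sunitinib libraries and 29.1, 27.6 and 30.3 CPM in the sorafenib libraries. The erlotinib libraries had 15.04, 16.9 and 12.8 CPM, against 33.7, 13.8 and 21.7 CPM in the control libraries. The erlotinib libraries lay below all sunitinib and all sorafenib libraries, and the sorafenib libraries narrowly above all sunitinib libraries. The control libraries were so far apart that each drug group overlapped them.

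Log2 fold changes of Aqp7 against control were -0.03 ± 0.26 for sunitinib, 0.33 ± 0.26 for sorafenib and -0.63 ± 0.26 for erlotinib. Between drugs Aqp7 gave -0.60 ± 0.26 for erlotinib against sunitinib and -0.96 ± 0.26 for erlotinib against sorafenib, a 1.94-fold lower level. Sorafenib against sunitinib gave 0.36 ± 0.26. Without Control_1365, the control library at 33.7 CPM, the erlotinib difference from control was -0.25. The 3 sorafenib libraries agreed to a coefficient of variation of 4.76%, close to the counting error of 4.67%, while the control libraries differed by 43.5%.

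White fat markers, of cells known for Aqp7, had another order of groups. Their 10 genes summed to 86.97 to 166.1 CPM in sunitinib, 63.6 to 105.5 CPM in sorafenib, 89.3 to 168.8 CPM in erlotinib and 118.5 to 129.1 CPM in control libraries. Sorafenib hearts, with the highest mean Aqp7, had log2 fold changes below 0 against control for all 8 tested white fat genes, with a median of -1.46. By edgeR 0 of the 8 passed after adjustment, and 2 had an unadjusted p under 0.05. The leading genes of the list were Lipe (mean 70.4 CPM), Car3 (17.6 CPM) and Cfd (10.2 CPM), so the sum was mostly Lipe. The part of fat cells in the Aqp7 differences was not tested.

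Aqp8, a water channel that also passes hydrogen peroxide, was highest in the erlotinib group. The sunitinib libraries had 4.25, 1.94 and 0.984 CPM and the sorafenib libraries 4.72, 3.199 and 4.89 CPM. The erlotinib libraries had 7.04, 7.67 and 12.2 CPM, against 4.07, 4.59 and 3.64 CPM in the control libraries. Every erlotinib library lay above every library of the other 3 groups. The sunitinib libraries with 1.94 and 0.984 CPM were the lowest of all 12, and the third lay within the control range.

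Against control the log2 fold change of Aqp8 was 1.13 ± 0.37 for erlotinib, a 2.19-fold higher level. It was 0.06 ± 0.39 for sorafenib and -0.75 ± 0.41 for sunitinib. Between drugs, Aqp8 was 3.69-fold higher in erlotinib than in sunitinib hearts (log2 fold change 1.88 ± 0.39) and 2.10-fold higher in erlotinib than in sorafenib hearts (1.07 ± 0.37). Sorafenib against sunitinib gave 0.81 ± 0.41 with overlapping libraries. With 1 library left out, the log2 fold change of erlotinib against sunitinib ran from 1.53 (without Sunitinib_1370, the lowest library) to 2.60 (without Sunitinib_1368, the library at control level), and that of sunitinib against control from -1.47 (without Sunitinib_1368) to -0.40 (without Sunitinib_1370). Counts of Aqp8 ran from 14 to 183 per library, so the lowest sunitinib value rested on 14 counts.

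Endothelial markers went with Aqp8 across the libraries, and other marker lists had r of similar size. The endothelial score was -0.20 to 0.02 in sunitinib, 0.04 to 0.13 in sorafenib, -0.02 to 0.17 in erlotinib and -0.23 to -0.01 in control libraries. Its r with Aqp8 over the 12 libraries was 0.705 (0.705 also with group means removed). For glia and nerve r was -0.729 (-0.476 with group means removed), for skeletal muscle 0.691 (0.202) and for ventricular cardiomyocytes -0.682 (-0.367). For mesothelium and epicardium, with 3 tested genes, it was 0.301 (0.832). In erlotinib against sunitinib 11 of the 15 endothelial genes lay above 0, with a median of 0.31. Of the 15, 4 passed, all higher, in a comparison where 11.9% of all genes passed. In erlotinib against control 11 also lay above 0, with a median of 0.19. By edgeR 0 of the 15 passed there, and 6 had an unadjusted p under 0.05. In erlotinib against sorafenib, where Aqp8 was higher by 1.07, 8 lay above 0 and 7 below, with a median of 0.02. The part of any of these cell types in the Aqp8 differences was not tested.

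Neither annotated neighbour of Aqp8 had a log2 fold change above 0 under erlotinib. Zkscan2, a zinc finger gene, fell in erlotinib against sunitinib hearts (log2 fold change -1.04 ± 0.28, edgeR adjusted p = 0.0302), the comparison in which Aqp8 differed most. Against control, Zkscan2 had -0.61 ± 0.28 under erlotinib (adjusted p = 0.322). Lcmt1, which encodes a methyltransferase of protein phosphatase 2A, had -0.12 ± 0.10 there (adjusted p = 0.612).

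Aqp8 and Aqp4 differed from control in opposite directions under erlotinib and, with overlapping libraries, under sunitinib. Under sorafenib Aqp4 was lower (log2 fold change -1.34 ± 0.36), while Aqp8 was near control (0.06 ± 0.39). The ratio of Aqp8 to Aqp4, taken on levels per transcript length (TPM), was 1.33, 0.26 and 0.124 in sunitinib libraries. It was 2.44, 2.28 and 3.71 in sorafenib libraries. The ratio reached 11.4, 10.1 and 15.1 in erlotinib libraries, against 1.64, 0.868 and 0.905 in control libraries. The erlotinib libraries had more than any other, the sorafenib libraries came next without overlap, and the sunitinib and control libraries overlapped.

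**Figure D3:**
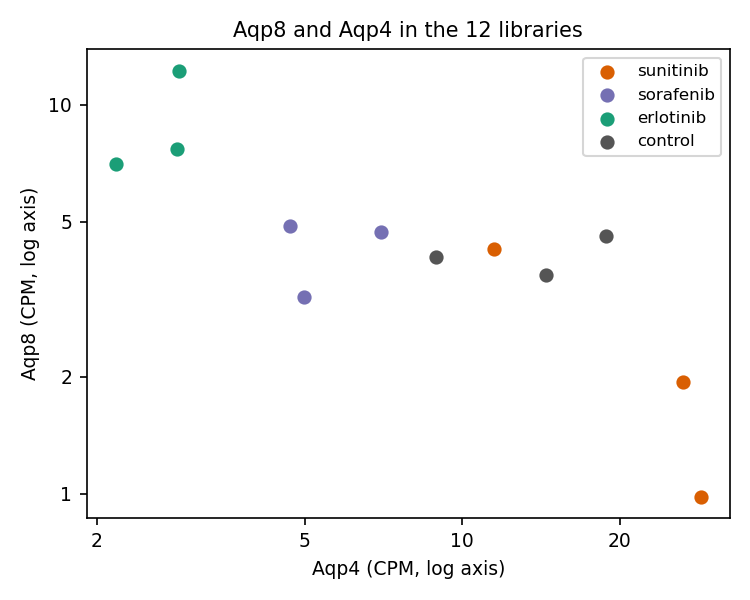
Aqp8 (vertical axis, CPM, log scale) against Aqp4 (horizontal axis, CPM, log scale), with 1 point per library, coloured by group. The 3 erlotinib libraries lie at the upper left, with 7.04 to 12.2 CPM of Aqp8 and 2.18 to 2.87 CPM of Aqp4, and 2 of the 3 sunitinib libraries lie at the lower right.

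Aqp11, of the divergent intracellular branch, was the member with the lowest CPM and its groups overlapped in every comparison. It had 1.22, 0.968 and 0.914 CPM in sunitinib libraries and 1.32, 1.42 and 0.951 CPM in sorafenib libraries. The erlotinib libraries had 1.09, 1.52 and 1.40 CPM, against 2.34, 1.55 and 1.13 CPM in the control libraries. The highest value was that of 1 control library, a second lay just above the drug libraries and the third within their range. Log2 fold changes against control were -0.68 ± 0.32 for sunitinib, -0.43 ± 0.31 for sorafenib and -0.32 ± 0.31 for erlotinib. Aqp11 rested on 13 to 34 counts per library, and in the drug groups its spread was below the counting error of 22% to 25%, so differences of this size were not resolved at this depth.

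Counted over the members, 1 of 5, Aqp4, passed edgeR's adjusted p threshold of 0.05 in erlotinib against control, where 0.29% of all genes tested passed. No member passed in sunitinib against control, where 0% of genes passed (0 genes by edgeR, with 1460 at an unadjusted p under 0.05 and 86 by DESeq2), nor in sorafenib against control, where 0.00744% passed. In erlotinib against sunitinib Aqp4 and Aqp8 passed, 2 of 5, beside 11.9% of all genes. None passed in erlotinib against sorafenib (2.7% of genes) or in sorafenib against sunitinib (0.0372%). With 1 of the 6 erlotinib and control libraries left out, Aqp4 passed in erlotinib against control in 1 of 6 fits (without Control_1366), and it did not pass without a filter or with the atrial score as a covariate. Other settings added calls. By DESeq2 Aqp4 also passed in sorafenib against control, and Aqp4 and Aqp7 in erlotinib against sorafenib. With the 2 groups alone Aqp4, Aqp7 and Aqp8 passed in erlotinib against sorafenib, and Aqp7 in erlotinib against sunitinib. In sorafenib against sunitinib Aqp4 passed by DESeq2 and without Sunitinib_1368, and Aqp7 passed in erlotinib against control without Control_1366. Since these contrasts took part in the choice of the members, nothing is read from the counts.

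Groups without overlap were found for Aqp4 and Aqp8 in erlotinib against control, 2 of 5 members beside 20.6% of all genes, and for Aqp4 in sorafenib against control, 1 of 5 beside 16.3%. In sunitinib against control all 5 members overlapped, where 14.6% of genes did not. Aqp4, Aqp7 and Aqp8 had no overlap in erlotinib against sunitinib (33.7% of genes) and in erlotinib against sorafenib (25.2%), and Aqp4 and Aqp7 in sorafenib against sunitinib (14.6%). The median log2 fold change of the members against control was -0.04 for sunitinib, -0.16 for sorafenib and -0.32 for erlotinib. Over all genes tested it was 0.00173 for sunitinib, -0.000691 for sorafenib and -0.00764 for erlotinib.

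Levels of different aquaporins can be set side by side only per length, for which the deposited TPM was used. In sunitinib hearts the order was Aqp1 (130.5 ± 32.7 TPM), Aqp7 (9.64 ± 1.03), Aqp4 (4.197 ± 1.56), Aqp8 (1.72 ± 1.33) and Aqp11 (0.817 ± 0.194). In sorafenib hearts it was Aqp1 (120.7 ± 46.7 TPM), Aqp7 (12.3 ± 0.354), Aqp8 (2.93 ± 0.587), Aqp4 (1.07 ± 0.216) and Aqp11 (0.983 ± 0.22). In erlotinib hearts it was Aqp1 (162.3 ± 23.9 TPM), Aqp7 (5.98 ± 1.01), Aqp8 (5.84 ± 1.65), Aqp11 (1.04 ± 0.222) and Aqp4 (0.477 ± 0.0666). Control hearts had Aqp1 (133.5 ± 35.9 TPM), Aqp7 (9.88 ± 4.61), Aqp8 (2.80 ± 0.111), Aqp4 (2.67 ± 0.847) and Aqp11 (1.34 ± 0.509), all as SD with n = 3.

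Aqp4 therefore took the third place in sunitinib hearts and the last place in erlotinib hearts. Some neighbours in these orders had overlapping libraries. They were Aqp4 and Aqp8 as well as Aqp8 and Aqp11 in sunitinib hearts, Aqp4 and Aqp11 in sorafenib hearts, Aqp7 and Aqp8 in erlotinib hearts, and Aqp8 and Aqp4 as well as Aqp4 and Aqp11 in control hearts. Aqp1 made up 82.3% to 93.5% of the aquaporin TPM of each library. The total was 147.0 ± 33.3 TPM in sunitinib, 138.2 ± 47.2 TPM in sorafenib, 175.6 ± 23.7 TPM in erlotinib and 150.4 ± 31.6 TPM in control hearts, and all groups overlapped.

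**Figure D4:**
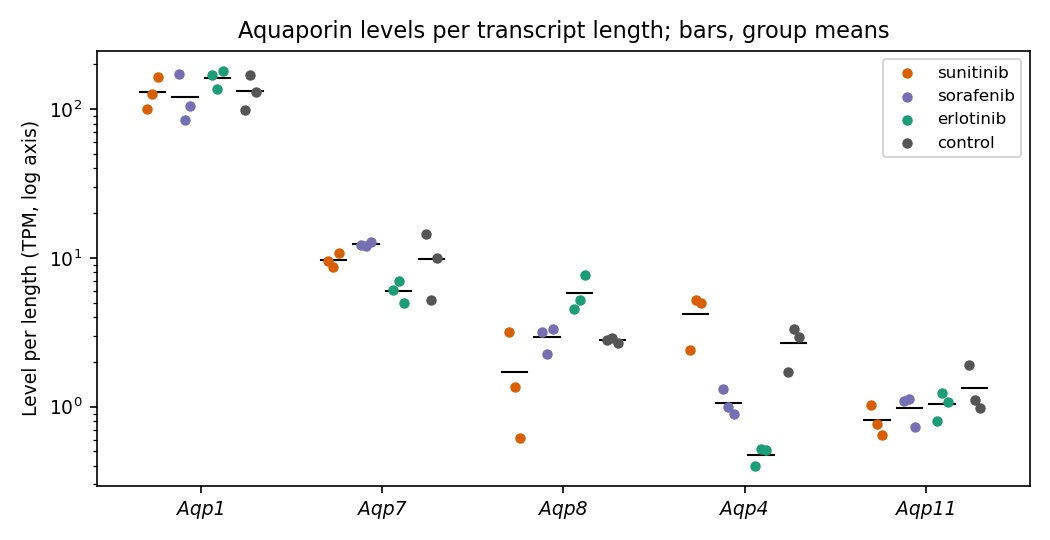
Level per transcript length (vertical axis, TPM, log scale) of the 5 aquaporins in each library, by group; points are libraries and bars are group means. Aqp1 lies above 80 TPM in every library, and the mean of Aqp4 lies below that of Aqp11 in the erlotinib group alone.

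The other 7 family genes were listed but failed the filter on low counts. Over all 12 libraries together Aqp2 had 18 counts, Aqp9 9, Aqp3 4, Aqp6 3, Mip 2.22 and Aqp5 1. Aqp12 had 0 counts, which allows a level of up to 0.0162 CPM over the libraries together, for counting error only. Aqp9, an aquaglyceroporin known from liver, and Aqp3, known from skin and kidney, were thus at trace level or undetected at this depth. All 5 described members had counts in every library.

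The genes whose log2 CPM followed Aqp4 most closely over the 12 libraries, by Pearson r among 11636 genes that averaged at least 1 CPM, were Maob (r = 0.936), Rp1 (0.926), Aass (0.926), Phkg1 (0.925) and Lrp4 (0.924). These r values are a description with no test, as the genes were picked as the highest and the 12 libraries come in 4 groups. Maob encodes monoamine oxidase B, Aass an enzyme of lysine breakdown, Phkg1 the muscle catalytic subunit of phosphorylase kinase and Lrp4 the agrin receptor of the neuromuscular junction. Rp1 encodes a microtubule-associated protein of photoreceptors.

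Aass, for example, averaged 5.05 ± 0.923 CPM in sunitinib, 1.77 ± 0.48 CPM in sorafenib, 1.08 ± 0.165 CPM in erlotinib and 3.11 ± 1.60 CPM in control hearts. Maob averaged 109.1 ± 18.5 CPM in sunitinib, 73.0 ± 6.16 CPM in sorafenib, 69.4 ± 3.41 CPM in erlotinib and 93.2 ± 5.91 CPM in control hearts. Both had the order of group means seen for Aqp4, over a narrower range for Maob. With the group means removed, r with Aqp4 was 0.773 for Maob, 0.736 for Rp1, 0.697 for Aass, 0.626 for Phkg1 and 0.519 for Lrp4, and other genes took the 5 highest places.

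**Figure D5:**
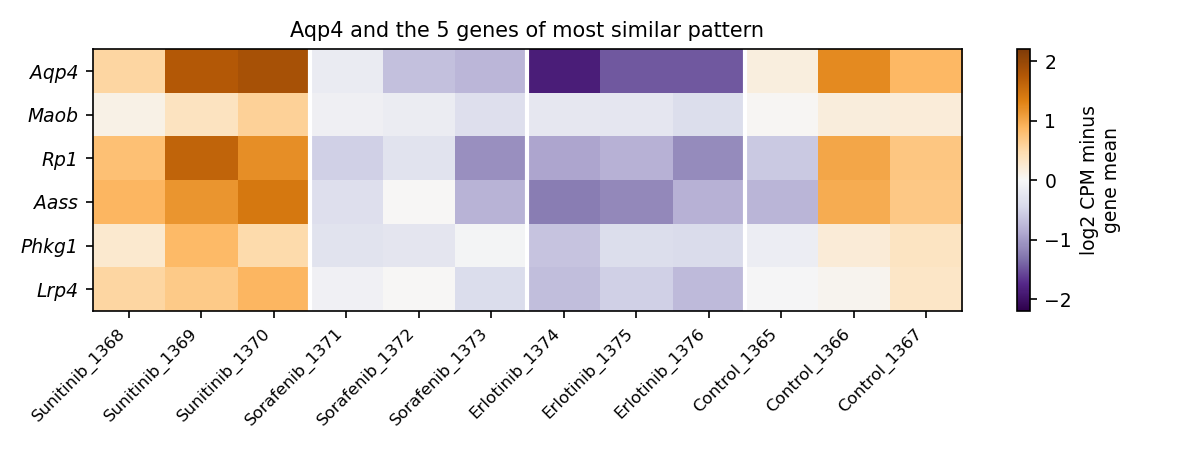
Log2 CPM minus the gene's mean (colour) of Aqp4 and the 5 genes of most similar pattern in the 12 libraries, ordered by group. All 6 genes are at their highest in sunitinib libraries and low in erlotinib libraries, where Aqp4 averages 2.63 CPM.

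For the other members the most similar patterns were Fam134b (r = 0.962) and Zfp874b (0.940) for Aqp1, Smg6 (0.947) and Ccdc69 (0.943) for Aqp7, Prkd2 (0.972) and Haus8 (0.950) for Aqp8, and Tmem116 (0.90) and Rab8b (0.857) for Aqp11. Prkd2, which encodes protein kinase D2, averaged 18.9 ± 4.11 CPM in sunitinib, 22.3 ± 1.76 CPM in sorafenib, 31.8 ± 3.99 CPM in erlotinib and 23.1 ± 0.984 CPM in control hearts.

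Genes of the processes around the channels were described through 5 lists with 98 tested genes. None passed edgeR's adjusted p threshold against control under any drug, with 7 genes for sunitinib, 17 for sorafenib and 21 for erlotinib at an unadjusted p under 0.05. DESeq2 called 1, 3 and 4, and limma none. In erlotinib against sunitinib 12 of the 98 passed, 9 higher and 3 lower, which is 12.2% beside 11.9% of all genes. In erlotinib against sorafenib 4 passed, 2 higher and 2 lower, which is 4.08% beside 2.7% of all genes. With 1 library left out the counts were 3 to 14 against sunitinib, lowest without Erlotinib_1376, and 0 to 2 against sorafenib.

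The dystrophin complex and its partners, which anchor Aqp4, had 18 tested genes, of which 12 lay above 0 and 6 below 0 in erlotinib against control, with a median log2 fold change of 0.11 (-0.01 over all genes). Dag1, dystroglycan, was at 463.1 ± 32.3 CPM in erlotinib and 406.8 ± 3.42 CPM in control hearts (adjusted p = 0.216). Utrn, utrophin, rose in erlotinib against sunitinib hearts by 0.34 ± 0.08 on the log2 scale (adjusted p = 0.0152), the only gene of this list to pass. It did not pass without Sunitinib_1370, Erlotinib_1375 or Erlotinib_1376 (adjusted p up to 0.0585).

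Cell volume and osmolyte transport genes had 23 tested members. In erlotinib against control 15 lay above 0 and 8 below, with a median log2 fold change of 0.07. In erlotinib against sunitinib 4 passed higher and 1 passed lower, beside 11.9% of all genes. Slc38a2, an amino acid transporter induced by hypertonicity in cultured cells, averaged 611.8 ± 86.7 CPM in erlotinib and 322.1 ± 88.5 CPM in control hearts (log2 fold change 0.93 ± 0.19, adjusted p = 0.0681). It rose in erlotinib against sunitinib hearts (309.3 ± 43.3 CPM) by 0.98 ± 0.19 (adjusted p = 0.0105) and against sorafenib hearts (336.3 ± 23.4 CPM) by 0.86 ± 0.19 (adjusted p = 0.0405). Lrrc8a, the essential subunit of the volume-regulated anion channel, averaged 133.1 ± 9.20 CPM in erlotinib and 88.2 ± 22.7 CPM in control hearts (0.59 ± 0.14, adjusted p = 0.0912). It rose in erlotinib against sunitinib hearts (76.2 ± 1.78 CPM) by 0.81 ± 0.14 (adjusted p = 0.00675) and against sorafenib hearts (84.9 ± 8.12 CPM) by 0.65 ± 0.14 (adjusted p = 0.0372). Both genes passed against sunitinib in all 14 alternatives. Against sorafenib Slc38a2 passed in 7 of 14 alternatives (not without a filter, not with the atrial covariate, and in 1 of 6 fits with 1 library left out, without Erlotinib_1374). Lrrc8a passed there in 8 of 14, with 0 of 6 when 1 library was left out, and adjusted p reached 0.155. Lrrc8d, another subunit, had 9.48 ± 1.88 CPM in erlotinib and 6.40 ± 1.54 CPM in sunitinib hearts (adjusted p = 0.0655).

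Of the caveolae and capillary barrier genes, 12 were tested. Cavin2 (listed as Sdpr), a coat protein of caveolae, averaged 129.6 ± 12.0 CPM in erlotinib and 160.5 ± 6.39 CPM in control hearts (log2 fold change -0.31 ± 0.07, adjusted p = 0.0899). It fell in erlotinib against sunitinib hearts by 0.39 ± 0.07 on the log2 scale (adjusted p = 0.0079) and against sorafenib hearts by 0.40 ± 0.07 (adjusted p = 0.0289). Cavin4 (listed as Murc), the cardiomyocyte member of that family, rose in erlotinib against sunitinib hearts by 0.43 ± 0.09 (adjusted p = 0.0121), so the pair moved in opposite directions. Against sorafenib Cavin2 passed without Sorafenib_1371 or Erlotinib_1374, in 2 of 6 fits with 1 library left out, and Cavin4 against sunitinib did not pass without Erlotinib_1376 (adjusted p = 0.0592). Cav1, the main caveolin of endothelium, averaged 391.9 ± 12.4 CPM in sorafenib and 312.1 ± 11.03 CPM in control hearts (0.33 ± 0.07, adjusted p = 0.114). Cav2, named after its values were seen, fell in erlotinib against sorafenib hearts by 0.30 ± 0.07 (adjusted p = 0.0351).

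Glycerol and triglyceride genes, around Aqp7, had 23 tested members, of which 18 lay above 0 under sorafenib and 18 under erlotinib against control. Gk (listed as Gyk), the kinase that traps glycerol in the cell, averaged 69.3 ± 3.54 CPM in erlotinib and 56.3 ± 2.59 CPM in sunitinib hearts and rose there by 0.30 ± 0.07 on the log2 scale (adjusted p = 0.0169), while Aqp7 was lower in the same comparison. Gk did not pass without Sunitinib_1368 or Erlotinib_1376 (adjusted p up to 0.0754). Gpd2, the mitochondrial glycerol-3-phosphate dehydrogenase, averaged 12.0 ± 0.19 CPM in sorafenib and 15.5 ± 1.27 CPM in control hearts (-0.37 ± 0.12, adjusted p = 0.246). Ppara, a lipid-sensing nuclear receptor, averaged 118.2 ± 9.91 CPM in sorafenib and 93.8 ± 10.3 CPM in control hearts (adjusted p = 0.281).

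Peroxide handling genes, around Aqp8, had 22 tested members, of which 17 lay above 0 under erlotinib against control, with a median log2 fold change of 0.04. Under sorafenib 6 lay above 0 and 16 below, with a median of -0.05. Txnrd1, cytosolic thioredoxin reductase, averaged 133.4 ± 10.7 CPM in sorafenib and 101.3 ± 8.06 CPM in control hearts (0.40 ± 0.09, adjusted p = 0.125). Ero1a (listed as Ero1l), a peroxide-producing oxidase of the endoplasmic reticulum, averaged 39.7 ± 3.28 CPM in sorafenib and 30.6 ± 2.11 CPM in control hearts (0.38 ± 0.08, adjusted p = 0.114). Prdx4, a peroxiredoxin of the same compartment, averaged 17.1 ± 1.12 CPM in sorafenib and 21.5 ± 2.24 CPM in control hearts (-0.33 ± 0.10, adjusted p = 0.208). In these sorafenib hearts Aqp8 had a log2 fold change of 0.06 ± 0.39.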

How the data were processed

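Per the submitters' processing notes, RSEM, Picard 1.88, SAMtools 1.2 and the mouse build mm9 were used. No source used here names the aligner, the annotation or the strand setting of the counting. Per the labels, stranded KAPA libraries were made from polyA RNA after RNeasy extraction. The authors deposited RSEM expected counts (estimated counts, which can be fractional), TPM, effective lengths and a scaled signal per gene and library. The 60 expected counts of the members were all whole. The deposited TPM of the listed genes summed to 54.9% to 60.8% of a full set, so totals are not the full depth.

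Expected counts were rounded and filtered with filterByExpr. Every member passed the filter by its counts in each group. TMM scaling (factors 0.949 to 1.04) and a robust quasi-likelihood fit of edgeR 4.0.16 (R 4.3.3) used all 12 libraries and a coefficient for each group. The biological coefficient of variation came to 0.128. All tests were two-sided, with Benjamini-Hochberg adjustment over 13440 genes and a threshold of 0.05. CPM values are mean ± SD over 3 libraries. The fit was tested on simulated data.

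The members and the 5 process and 13 marker lists were chosen with earlier results of these data known. Named are all members, all other listed family genes, the 3 genes of smallest p against control from each process list, leading markers, and the genes most like each member. One gene that this rule took is not reported here. Alternatives were DESeq2 1.42.0, RLE, no filter, leaving out the 20 most abundant genes, the 2 groups alone, limma 3.58.1 on the deposited scaled signal (log2, plus 1 or 10), an atrial score as covariate, and leaving out each library. Promoter sequences came from RefSeq, where 4 of 5 members matched, and that of Aqp4 is not used here.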

Additional observations from a re-analysis of the deposited data

How the results depend on the processing

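Log2 fold changes of the members moved by less than 1 SD between replicates in all alternatives. That SD is of single libraries. Leaving out 1 of 3 can hardly move a mean so far, so the bound says little about stability. In sunitinib against control, Aqp1 ran from -0.32 to 0.26 and Aqp7 from -0.29 to 0.33 with 1 library left out. Aqp8 ran from -1.47 to -0.40 there. Aqp4 in erlotinib against control ranged from -2.66 to -2.14 with 1 library left out and from -2.60 to -2.23 otherwise. It passed the threshold in 7 of 14 alternatives, but not without a filter, with the atrial covariate, or in 5 of 6 fits with 1 library left out (it passed without Control_1366). In erlotinib against sunitinib Aqp4 passed in 14 of 14 alternatives and Aqp8 in 11 of 14 (not without Sunitinib_1369, without Erlotinib_1376 or with the 2 groups alone). The refits reuse the libraries whose differences were known when the members were chosen, so nothing is read from these tallies. Aqp7 in erlotinib against control ranged from -0.88 to -0.25 with 1 library left out.

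Counts of genes called varied more. For sunitinib against control (0) they were 1 with no filter, 1 with the atrial covariate, 86 by DESeq2, and 0 to 12 with 1 library left out. For sorafenib (1) they were 20 with no filter, 0 with the atrial covariate, 175 by DESeq2, 4 by limma with either pseudocount, and 0 to 88. For erlotinib (39) they were 0 with the atrial covariate, 363 by DESeq2, and 0 to 236: 0 without Control_1365 or Control_1367, 236 without Control_1366, and 22, 3 and 2 without Erlotinib_1374, Erlotinib_1375 and Erlotinib_1376. The cause was not tested, beyond the smaller groups. Process list genes called by DESeq2 were 1, 3 and 4, and 0 to 1 for erlotinib with 1 library left out. In erlotinib against sunitinib (1595 genes) the range was 404 to 1314, and against sorafenib (363 genes) 1 to 190, with 1 library left out.

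Rescaling TPM over the listed genes put the control means at 4.67 for Aqp4, 233.1 for Aqp1, 17.1 for Aqp7, 4.88 for Aqp8 and 2.32 for Aqp11, by its construction, since the listed genes are part of a larger set. Of the 5 genes most like Aqp4, 3 stayed by Spearman rho and 0 by deviations from group means. No paired analysis was possible because the groups share no replicate numbers. Depth limits Aqp11 (13 to 34 counts) and Aqp4 in erlotinib hearts (34 to 45 counts).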
